A study of Mus musculus with 6 samples.

Results

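Besides the transgene and the other genes set apart by name, 49 genes had higher counts in the livers of mice that overexpress *Zrsr1* in hepatocytes. They were taken from a deposited list of 257 genes, of which 65 had a higher mean count in TBG-*Zrsr1* than in TBG-Vec mice. From these 65 genes 16 were set apart by name, namely *Zrsr1*, *Commd1*, *Mup1*, *Mup9*, *Mup17*, *Cfd*, *Saa1*, *Saa2*, *Saa4*, *Mt2*, *Steap4*, *Cxcl1*, *Socs3*, *Junb*, *Bcl3* and *Il1r1*. The 49 members were therefore chosen by the very counts described here, and their differences between the groups are a description without a test.

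The libraries were made from liver RNA of wild-type C57BL/6J mice fed an HFD (D12492) for 13 weeks, 3 mice in each group. TBG-*Zrsr1* mice had received AAV carrying *Zrsr1*, the gene of a minor intron splicing factor, through the tail vein, and TBG-Vec mice had received the vector control, whose library names carry the letters GFP. The TBG promoter restricts the insert to hepatocytes, whereas the RNA came from whole liver, with its macrophages, endothelial and stellate cells. The ages of the mice are not given in the sources used here. *Zrsr1* itself was counted 194, 197 and 202 times in the TBG-Vec mice and 4383, 4479 and 4405 times in the TBG-*Zrsr1* mice. Values are the whole-number counts of the authors, used without rescaling between libraries. The depth of the libraries is unknown, since the totals of the listed genes, 174448 to 283414, cover a selected list only.

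A set of genes picked by direction has no shared pathway of its own, and the members fall into 8 groups. Most groups follow what the products are known to do. The others hold 5 remaining coding genes and 8 entries that are noncoding, a pseudogene or unmatched. Several members belong to the branch of signalling in which cytokine and stress receptors act through MAP kinase kinase kinases, NF-kB and AP-1. Others fold, glycosylate or move proteins through the secretory pathway, carry solutes and lipids across membranes, or bind DNA. A small number are best known from macrophages and neutrophils, which in liver include the Kupffer cells of the sinusoids.

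The members were modest in level and, without rescaling, in size of difference. Their mean counts over the 6 mice ran from 20.2 in *Atp8b2* to 1805 in *Gm42035*, with a median of 55.0, beside a median of 95.3 over all listed genes. A mean under 50 counts was found in 22 members and a mean of at least 500 in 5. At the lowest of these means counting error alone is 22.3% of the value of a single mouse, and at the highest it is 2.35%. All 49 members passed the filter on low counts.

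In the fit over all 257 genes the members had a median log2 fold change of 0.67, from 0.47 in *Tango2* to 1.38 in *Adgrv1*, with standard errors between 0.15 and 0.34. By ratio of the group means, 2 members lay above 2-fold, 30 others above 1.5-fold and up to 2-fold, and 17 at or below 1.5-fold. With edgeR's quasi-likelihood test, an adjusted p under 0.05 and a fold above 1.5, 32 of the 49 members were called higher, beside 18.7% of all listed genes. The 17 others had an adjusted p under 0.05 in the same edgeR test and missed the fold. Nothing is read from these counts, because the members were selected on the same contrast. In all 49 members the 3 TBG-*Zrsr1* counts lay above the 3 TBG-Vec counts, beside 25.3% of all listed genes. Of the 192 lower genes 190 were separate the other way, 255 of 257 genes in all, so without rescaling nearly the whole list has separate groups, and this too is bound to how it was made.

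The scaling of the libraries sets the size of these differences. Without rescaling the median log2 fold change of all listed genes was -0.54, and 48 genes were called higher and 108 lower. Scaling by TMM, DESeq2 size factors or equal totals over the listed genes raised that median by 0.52, 0.47 and 0.39. The calls then stood at 65 higher and 10 lower, 65 higher and 13 lower, and 65 higher and 17 lower, and all 49 members were among the calls under each of the 3. The median log2 fold change of the members rose from 0.67 to 1.19, 1.15 and 1.07, and 49, 38 and 30 of them lay above 2-fold in place of 2. The direction of every member was the same under these scalings.

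At the edge of the rule, *Tango2* was the member with the smallest ratio of group means, 1.38, followed by *Zfp275* and *Fosl2*, the latter with 1.41. Just outside stood *Mapre3* with a ratio of 0.730, *Lipa* with 0.730 and *Gm12781* with 0.729. No listed gene had a ratio between 0.730 and 1.38, so the rule divides the list at a gap that its own selection left.

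**Figure D1:**
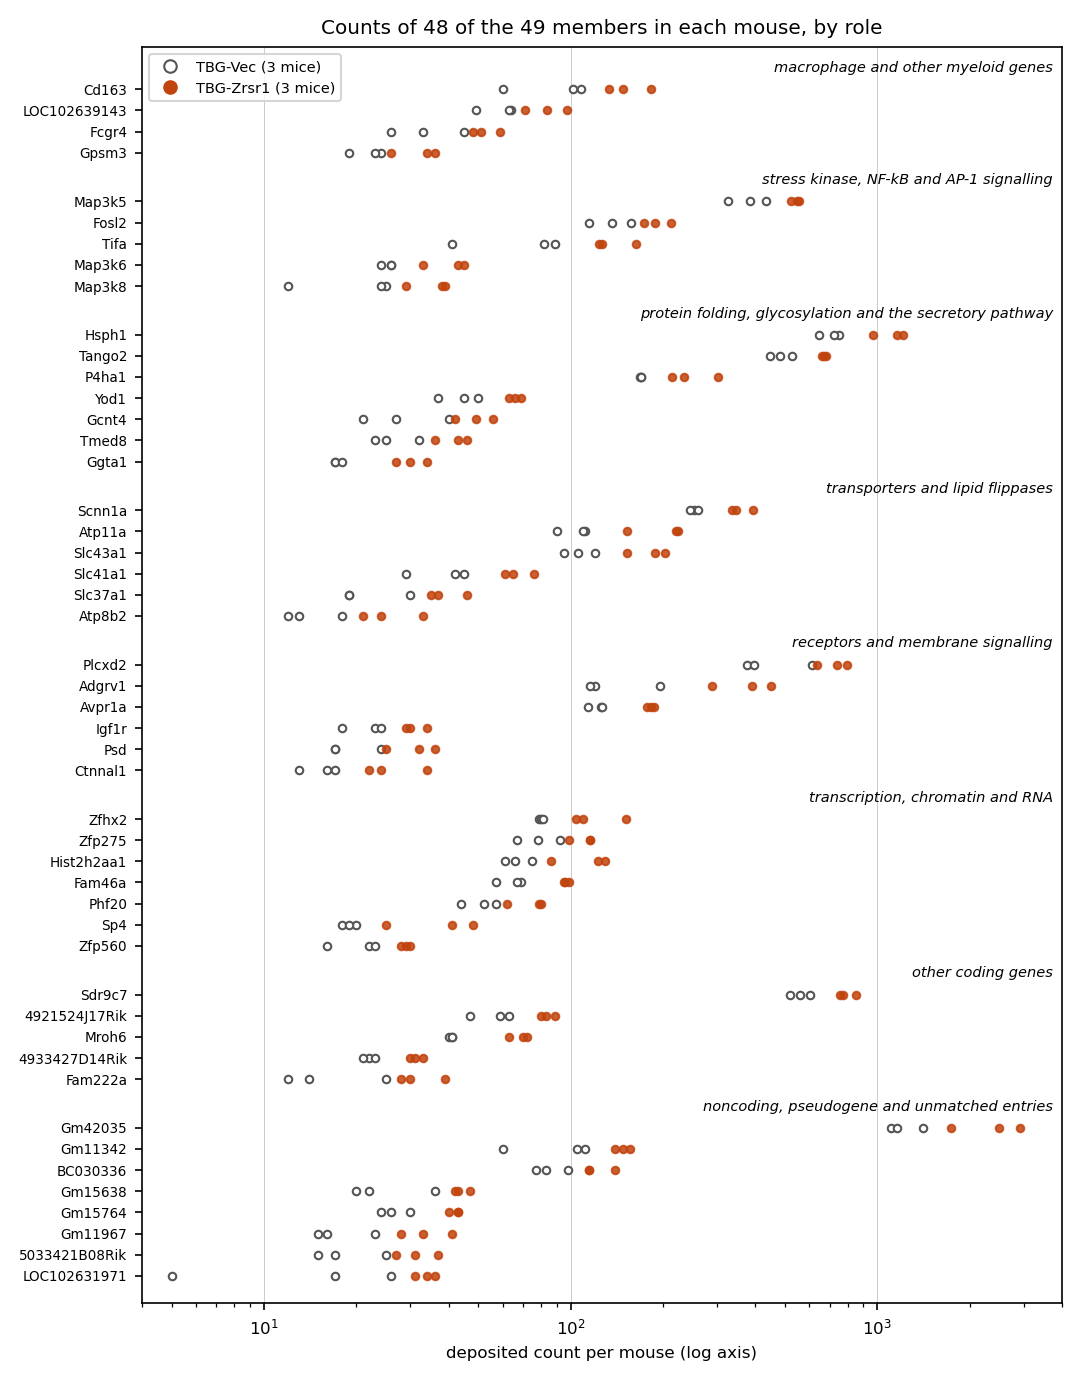
Deposited counts (log axis) of 48 of the 49 members in 3 TBG-Vec mice (open circles) and 3 TBG-*Zrsr1* mice (filled circles), grouped by role and ordered by mean count within a role. In every member drawn the filled circles lie to the right of the open ones, and the counts run from 5 for LOC102631971 in a TBG-Vec mouse to 2923 for *Gm42035* in a TBG-*Zrsr1* mouse.

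Some members are known from macrophages and other myeloid cells. *Cd163*, the scavenger receptor with which macrophages take up hemoglobin bound to haptoglobin, was counted 102, 108 and 60 times in TBG-Vec mice. In TBG-*Zrsr1* mice it was counted 148, 133 and 183 times, a log2 fold change of 0.78 (SE 0.22). The third TBG-Vec mouse was low and the third TBG-*Zrsr1* mouse high, and 25 counts separated the groups. In whole liver RNA, more macrophages and more *Cd163* RNA in each macrophage cannot be told apart. *Cd163* was the only 1 of 18 Kupffer cell and macrophage markers in the list, the other markers are not in it, and so their levels were not analysed here. None of 12 hepatocyte markers is listed either, which leaves the tissue label without a check from these genes. Of 15 stellate cell and fibroblast markers only *Col3a1*, not a member, is listed. It was called lower, with counts of 348, 413 and 510 in TBG-Vec mice and 279, 176 and 203 in TBG-*Zrsr1* mice.

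*Fcgr4*, an activating receptor for the Fc part of IgG on myeloid cells, had a log2 fold change of 0.60 (SE 0.21), with its groups 3 counts apart. *Gpsm3*, a regulator of G protein signalling in blood cells, had a log2 fold change of 0.54 (SE 0.20), with its groups 2 counts apart. LOC102639143 matched *Fcnaos*, a noncoding RNA that runs antisense to the ficolin A gene *Fcna*, and had a log2 fold change of 0.52 (SE 0.18).

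The kinases that stand at the head of MAP kinase cascades were represented by *Map3k5*, *Map3k6* and *Map3k8*. *Map3k5* encodes ASK1, which drives the JNK and p38 kinases under oxidative stress and is held inactive by thioredoxin. It was counted 435, 385 and 327 times in TBG-Vec mice and 547, 555 and 522 times in TBG-*Zrsr1* mice, with a log2 fold change of 0.50 (SE 0.17). The TBG-*Zrsr1* mice lay close together, with a CV (the SD as a percentage of the mean) of 3.18%, and the TBG-Vec mice farther apart, with 14.1%. *Map3k6*, which encodes ASK2, a partner of ASK1, was much lower per length, at 5.80 counts per kb of transcript in TBG-Vec mice beside 58.7 for *Map3k5*. Its log2 fold change was 0.67 (SE 0.19).

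*Map3k8* encodes TPL2, the kinase that links Toll-like and TNF receptors to ERK and is bound in resting cells by the NF-kB precursor p105. Its counts were 12, 25 and 24 in TBG-Vec mice and 39, 29 and 38 in TBG-*Zrsr1* mice. A log2 fold change of 0.79 (SE 0.25) resulted, the groups were 4 counts apart, and the first TBG-Vec mouse was low. *Tifa*, an adaptor that activates NF-kB through TRAF proteins after bacterial sugars are sensed, was counted 89, 82 and 41 times in TBG-Vec mice. In TBG-*Zrsr1* mice its counts were 163, 124 and 127, a log2 fold change of 0.96 (SE 0.24). As for *Cd163*, the third TBG-Vec mouse lay well below the others of its group, and *Tifa* had 1 of the 3 largest CVs among the members in TBG-Vec mice, 36.7%.

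*Tifa* and *Map3k8* were the 2 genes of the cytokine, NF-kB and STAT3 list of 51 genes that the deposited list holds. Those 51 leave out *Cxcl1*, *Socs3*, *Junb*, *Bcl3* and *Il1r1*, which the deposited list also holds and which were set apart by name. The count of 2 is therefore not a count of all such genes in the deposited list. Both *Tifa* and *Map3k8* were called higher, and both were selected for being higher. The call of *Map3k8* was lost without the first TBG-Vec mouse, where its log2 fold change was 0.53. *Fosl2*, which encodes the AP-1 subunit FRA2, was counted 115, 136 and 157 times in TBG-Vec mice and 188, 174 and 213 times in TBG-*Zrsr1* mice. With a log2 fold change of 0.49 (SE 0.17) it was among the 5 smallest differences, and 17 counts separated its groups.

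Of the 7 members that fold, modify or move proteins, *Hsph1* had the highest counts. It encodes HSP105, a cytosolic chaperone that exchanges nucleotide on HSP70, and it was the only 1 of 22 heat shock and chaperone genes in the list. Its counts were 750, 647 and 720 in TBG-Vec mice and 1163, 1211 and 970 in TBG-*Zrsr1* mice. All TBG-*Zrsr1* mice lay at least 220 counts above the highest TBG-Vec mouse, the log2 fold change was 0.66 (SE 0.17), and the lowest and highest values after leaving out each mouse in turn were 0.60 and 0.75.

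*Tango2*, whose human counterpart is mutated in a disorder of metabolic crises and heart rhythm, was counted 446, 480 and 526 times in TBG-Vec mice. In TBG-*Zrsr1* mice the counts were 660, 672 and 678, which gives a CV of 1.37%, the smallest of all members in that group. With a log2 fold change of 0.47 (SE 0.16) it had the smallest difference of the members. Its level was 295 counts per kb of the canonical transcript in TBG-Vec mice, the highest of the 47 members with a known length, but 42.7 per kb of all its annotated exons, the seventh.

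*P4ha1* encodes the catalytic subunit of the enzyme that hydroxylates prolines in collagen. It was counted 168, 169 and 169 times in TBG-Vec mice, the smallest CV of all (0.342%), and 302, 235 and 214 times in TBG-*Zrsr1* mice (18.4%). A CV this small lies far below the counting error of such a level. Its log2 fold change was 0.57 (SE 0.17), and the first TBG-*Zrsr1* mouse stood well above the others.

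*Ggta1* makes the alpha-galactosyl sugar cap that mice have and humans lack. It was counted 17, 17 and 18 times in TBG-Vec mice and 34, 27 and 30 times in TBG-*Zrsr1* mice, a log2 fold change of 0.80 (SE 0.20). Its groups were tight and 9 counts apart. *Gcnt4*, which branches mucin-type sugar chains, had a log2 fold change of 0.74 (SE 0.23) with groups 2 counts apart. *Tmed8*, a relative of the p24 cargo receptors, had 0.64 (SE 0.19). *Yod1*, a deubiquitinase that works with the p97 ATPase in clearing misfolded proteins from the endoplasmic reticulum, had 0.58 (SE 0.17) and lay just under the fold threshold.

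The 6 transporters and flippases had summed counts of 568, 531 and 518 in TBG-Vec mice and 848, 927 and 841 in TBG-*Zrsr1* mice. *Atp11a*, a flippase that moves phosphatidylserine to the inner leaflet of the plasma membrane, was counted 111, 110 and 90 times in TBG-Vec mice. In TBG-*Zrsr1* mice its counts were 153, 224 and 220, a log2 fold change of 0.94 (SE 0.19). The first TBG-*Zrsr1* mouse was nearest to the TBG-Vec mice, and 42 counts separated the groups. *Atp8b2*, a flippase of the same family, was counted 12, 18 and 13 times in TBG-Vec mice and 33, 24 and 21 times in TBG-*Zrsr1* mice. This was the lowest mean count of all members, and the log2 fold change of 0.85 (SE 0.25) rests on groups 3 counts apart.

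Among the solute carriers, *Slc41a1* (magnesium) had a log2 fold change of 0.80 (SE 0.19), *Slc37a1* (sugar phosphates of the endoplasmic reticulum) 0.79 (SE 0.22) and *Slc43a1* (large neutral amino acids) 0.76 (SE 0.17). *Scnn1a*, the alpha subunit of the epithelial sodium channel, had 0.51 (SE 0.15) on a mean of 253 counts in TBG-Vec mice. Per length it was the highest of the 6, at 72.2 counts per kb of transcript in TBG-Vec mice.

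With all mice, the largest difference of all belonged to a receptor. Without the third TBG-Vec mouse, *Fam222a* had a log2 fold change of 1.31 and the receptor 1.25. *Adgrv1* encodes a very large adhesion G protein-coupled receptor, best known from the hair bundles of the inner ear. It was counted 120, 196 and 116 times in TBG-Vec mice and 451, 288 and 389 times in TBG-*Zrsr1* mice, with a log2 fold change of 1.38 (SE 0.23). Both groups were spread, with CVs of 31.3% and 21.9%, and the lowest TBG-*Zrsr1* mouse still lay 92 counts above the highest TBG-Vec mouse. Its canonical transcript has 19363 bases in 90 exons, so that these counts amount to 7.44 per kb in TBG-Vec mice and 19.4 per kb in TBG-*Zrsr1* mice.

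*Avpr1a*, the vasopressin receptor through which the hormone raises calcium and glycogen breakdown in hepatocytes, showed the opposite behaviour of a small and even difference. It was counted 114, 126 and 127 times in TBG-Vec mice and 183, 187 and 178 times in TBG-*Zrsr1* mice. The CV in TBG-*Zrsr1* mice was 2.47%, 1 of the 3 smallest, and the log2 fold change was 0.58 (SE 0.15). *Igf1r*, the receptor for IGF1, had a log2 fold change of 0.51 (SE 0.20) and, at 1.74 counts per kb of transcript in TBG-Vec mice, the lowest level per length of the 47 members with a known length.

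*Plcxd2*, with the catalytic X domain of phospholipase C, was among the 5 members with the highest counts. Its counts were 613, 377 and 396 in TBG-Vec mice and 738, 637 and 799 in TBG-*Zrsr1* mice. The first TBG-Vec mouse came within 24 counts of the lowest TBG-*Zrsr1* mouse, and the log2 fold change was 0.65 (SE 0.21). *Ctnnal1*, a relative of alpha-catenin, was counted 16, 17 and 13 times in TBG-Vec mice and 22, 24 and 34 times in TBG-*Zrsr1* mice, a log2 fold change of 0.79 (SE 0.24) in which the third TBG-*Zrsr1* mouse was the highest. *Psd*, an exchange factor for the small GTPase ARF6, had a log2 fold change of 0.68 (SE 0.22), and its groups were 1 count apart, the narrowest gap of all members.

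The 7 members that act on DNA, chromatin or RNA were mostly low per length, and *Sp4* had the largest difference of them. *Sp4*, a zinc finger factor that binds GC boxes, was counted 18, 20 and 19 times in TBG-Vec mice and 41, 25 and 48 times in TBG-*Zrsr1* mice. Its log2 fold change was 1.00 (SE 0.25), and the second TBG-*Zrsr1* mouse was only 5 counts above the TBG-Vec mice. This gave *Sp4* the largest CV of all members in TBG-*Zrsr1* mice, 31.0%, beside 5.26% in TBG-Vec mice.

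*Zfhx2*, a zinc finger homeobox gene, was counted 79, 80 and 81 times in TBG-Vec mice, a CV of 1.25%, and 110, 151 and 104 times in TBG-*Zrsr1* mice, a CV of 21.0%. Its log2 fold change was 0.60 (SE 0.18), with the second TBG-*Zrsr1* mouse far above the other two. *Fam46a*, now named *Tent5a*, encodes a poly(A) polymerase and behaved the other way round. Its counts were 69, 67 and 57 in TBG-Vec mice and 95, 99 and 96 in TBG-*Zrsr1* mice, with a CV of 2.15% in the latter and a log2 fold change of 0.59 (SE 0.16).

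*Zfp275* and *Zfp560* encode zinc finger proteins. *Zfp275* was counted 92, 78 and 67 times in TBG-Vec mice and 116, 116 and 99 times in TBG-*Zrsr1* mice, a log2 fold change of 0.48 (SE 0.17). *Zfp560* was counted 22, 23 and 16 times in TBG-Vec mice and 28, 29 and 30 times in TBG-*Zrsr1* mice, a log2 fold change of 0.51 (SE 0.20). In both, the groups lay close, 7 counts apart in *Zfp275* and 5 in *Zfp560*. *Phf20*, a subunit of a histone acetyltransferase complex, had a log2 fold change of 0.53 (SE 0.18).

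*Hist2h2aa1*, an H2A histone gene now named *H2ac18*, had a log2 fold change of 0.74 (SE 0.19) on a mean of 67.3 counts in TBG-Vec mice. Messages of this kind mostly end without a poly(A) tail, and the libraries were made from RNA caught on oligo(dT) beads. Its transcript shares 89.4% of its 50-base stretches with other annotated genes on the same strand, so its counts cannot be assigned to this copy alone.

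Of the 5 remaining coding genes, *Sdr9c7*, a short-chain dehydrogenase best known from the lipid barrier of skin, had by far the most counts. It was counted 518, 561 and 603 times in TBG-Vec mice and 754, 855 and 772 times in TBG-*Zrsr1* mice, a log2 fold change of 0.50 (SE 0.16). The groups were 151 counts apart, and its level was 195 counts per kb of canonical transcript in TBG-Vec mice, or 185 per kb of all its annotated exons. *Mroh6* was counted 40, 41 and 41 times in TBG-Vec mice, a CV of 1.42%, and 63, 72 and 70 times in TBG-*Zrsr1* mice. Its lowest TBG-*Zrsr1* count was 1.54 times its highest TBG-Vec count, the widest relative gap of all members, and its log2 fold change was 0.75 (SE 0.16).

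*Fam222a* lay at the other end of these 5 genes, with its lowest TBG-*Zrsr1* count 1.12 times its highest TBG-Vec count. It was counted 12, 14 and 25 times in TBG-Vec mice and 28, 39 and 30 times in TBG-*Zrsr1* mice. The third TBG-Vec mouse was within 3 counts of the first TBG-*Zrsr1* mouse, so that the log2 fold change of 0.92 (SE 0.26), although among the 10 largest, came with a CV of 41.2% in TBG-Vec mice. *4921524J17Rik* and *4933427D14Rik* had log2 fold changes of 0.58 (SE 0.17) and 0.51 (SE 0.18).

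The last 8 entries are noncoding, a pseudogene or without a match in the annotation. *Gm42035* had more counts than any other member and no match in GENCODE M39 or RefSeq, so neither its product nor its length is known here. Its counts were 1112, 1158 and 1409 in TBG-Vec mice and 2495, 2923 and 1735 in TBG-*Zrsr1* mice. The third TBG-*Zrsr1* mouse was well below the others, the CV in that group was 25.2%, and the log2 fold change was 0.96 (SE 0.21). This single entry held 23.4% of the summed TBG-*Zrsr1* means of all members.

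LOC102631971 matched *Mup-ps15*, a pseudogene in the cluster of major urinary protein genes on chromosome 4. Its counts were 17, 26 and 5 in TBG-Vec mice and 31, 36 and 34 in TBG-*Zrsr1* mice. The TBG-Vec mice scattered more than for any other member, with a CV of 65.8%, while the TBG-*Zrsr1* mice were even, with 7.48%. The log2 fold change was 1.07 (SE 0.34), the second largest and with the largest SE. It fell to 0.64 without the third TBG-Vec mouse and rose to 1.60 without the second, and its call was lost in the DESeq2 Wald test without scaling at an unchanged 1.07. Of the 50-base stretches of this transcript 74.9% occur on the same strand in other annotated genes, 25 in number, most often in the noncoding *Gm70651* (56.1%) and the pseudogene *Mup-ps2* (51.8%). *Gm70651* lies at the same locus and strand and overlaps 373 of the 539 exon bases of *Mup-ps15*. *Mup6* was among the 25 with 3.06%, and *Mup1*, *Mup9* and *Mup17* were not.

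*Gm11967*, a long noncoding RNA, was counted 16, 23 and 15 times in TBG-Vec mice and 41, 28 and 33 times in TBG-*Zrsr1* mice, a log2 fold change of 0.91 (SE 0.23). Its groups were 5 counts apart, and 24.4% of its stretches occur in other genes. The long noncoding *Gm15638*, *5033421B08Rik*, *Gm11342* and *Gm15764* had log2 fold changes of 0.76, 0.73, 0.69 and 0.65, and the unmatched *BC030336* had 0.52. In *Gm11342* the third TBG-Vec mouse was again the lowest, with 60 counts beside 111 and 105.

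Spread was described apart from level, since the rule used the group means and not the scatter around them. The list itself was nonetheless selected on scatter too, because the authors' unadjusted p was under 0.05 for all 257 genes and such a p is small where mice agree. The median CV of the members was 14.8% in TBG-Vec mice and 12.3% in TBG-*Zrsr1* mice. Over the 192 lower genes the medians were 11.3% and 15.9%. Counts differed too, with a median of the gene means of 44.0 (TBG-Vec) and 68.3 (TBG-*Zrsr1*) for the members, beside 113 and 69.2 for the lower genes. In 22 members in TBG-Vec mice and 23 in TBG-*Zrsr1* mice the variance was below the mean, that is below counting error alone. Of all 257 listed genes the same held for 104 in TBG-Vec mice and 78 in TBG-*Zrsr1* mice. The CV was larger in TBG-Vec mice for 30 members and in TBG-*Zrsr1* mice for 19.

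**Figure D2:**
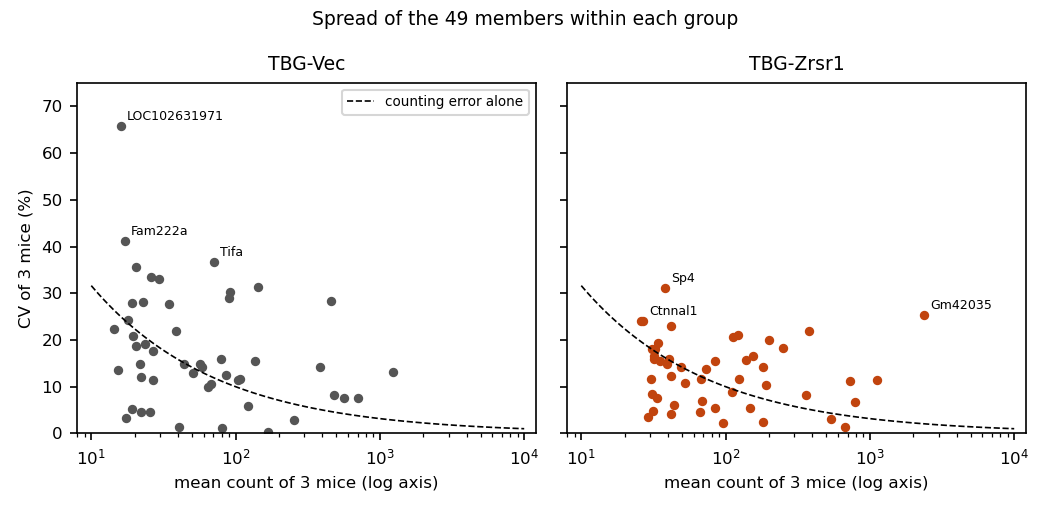
CV over 3 mice (%) against the mean count (log axis) for the 49 members in TBG-Vec mice (left) and TBG-*Zrsr1* mice (right), with a dashed line for the CV that counting error alone gives. The 3 members with the largest CV in each group are named, among them LOC102631971 with 65.8% in TBG-Vec mice and *Sp4* with 31.0% in TBG-*Zrsr1* mice.

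Without rescaling, the mice of each group had similar sums over the members. Summed over the 49 genes the counts were 6328, 6183 and 6241 in TBG-Vec mice and 10454, 10762 and 9415 in TBG-*Zrsr1* mice. As shares of the counts of all listed genes, these were 2.40%, 2.18% and 2.22% in TBG-Vec mice and 4.52%, 6.17% and 4.14% in TBG-*Zrsr1* mice, the second TBG-*Zrsr1* mouse being highest. Without rescaling, the first TBG-*Zrsr1* mouse alone had the highest count of its group in 15 members, the second in 18 and the third in 14, and the first and second tied in 2. Against the TBG-Vec mean, the median log2 ratio of the members was 0.65, 0.65 and 0.63 in the 3 TBG-*Zrsr1* mice. In the 192 lower genes the second TBG-*Zrsr1* mouse stood apart, alone with the lowest count of its group in 139 genes and with a sum of 125899 beside 185697 and 189840. Among the members it was the lowest in 14, beside 17 for the first mouse and 17 for the third, with 1 tie between them.

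In TBG-Vec mice the second mouse alone was the lowest in only 5 members, the first in 20 and the third in 21, with ties in 3. The third mouse was the lowest for *Cd163*, *Tifa*, *Gm11342* and LOC102631971, each by a wide margin. Without it 28 members were called, beside 44 of all 257 listed genes. *Cd163*, *Fam46a*, *Fcgr4*, *Gcnt4*, *Gm11342* and *Plcxd2* lost their calls, and *Avpr1a* and *Fosl2* gained one. The log2 fold changes of the 6 that lost the call were 0.56, 0.51, 0.57, 0.55, 0.45 and 0.55, in that order. With all mice they were 0.78, 0.59, 0.60, 0.74, 0.69 and 0.65. Over all listed genes, 48 were called higher with all mice and 35 with and without each mouse. Of the 32 members called with all mice, 13 lost the call when some mouse was left out. Besides the 6 just named and *Map3k8*, these were *Gm15764* and *Tmed8* without the first TBG-Vec mouse, *Map3k6*, *Psd* and *Zfhx2* without the second TBG-*Zrsr1* mouse, and *Ctnnal1* without the third. Without these mice the log2 fold changes were 0.58 in *Gm15764*, *Map3k6* and *Ctnnal1*, in place of 0.65, 0.67 and 0.79. They were 0.56 in *Psd* (0.68 with all mice), 0.55 in *Tmed8* (0.64) and 0.42 in *Zfhx2* (0.60). *Fcgr4* and *Plcxd2* lost the call in 3 of the 6 fits that leave out 1 mouse, and *Fam46a* and *Tmed8* in 2.

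**Figure D3:**
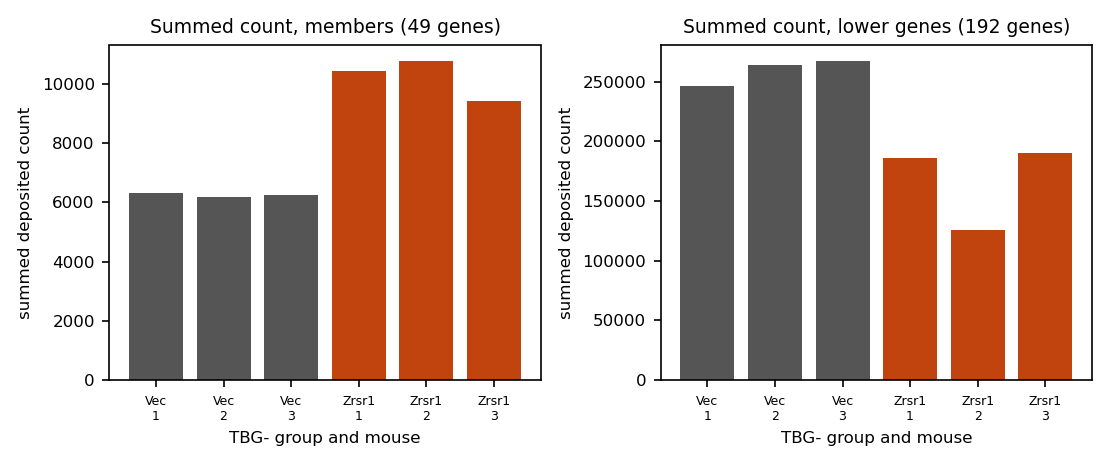
Summed deposited counts in each mouse over the 49 members (left) and over the 192 listed genes with a lower TBG-*Zrsr1* mean (right), grey for TBG-Vec and orange for TBG-*Zrsr1*. The second TBG-*Zrsr1* mouse has the lowest sum on the right (125899) and the highest on the left (10762). Without *Gm42035* the TBG-*Zrsr1* sums on the left are 7959, 7839 and 7680, with the first mouse highest.

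The members had no common position in the genome. Of the 49, 47 matched the annotation, 40 as coding genes, 6 as long noncoding RNAs and 1 as a pseudogene, and they were spread over 20 chromosomes with at most 4 on any chromosome. *Gm15638* and *Plcxd2* overlap in span on opposite strands of chromosome 16 (GRCm39, 45765903 to 45791733 and 45779291 to 45830800) without shared exon bases. *Gm15764* and *Tango2* lie 69442 bases apart, also on chromosome 16. Exons of 9 members lie under exons of a coding gene on the other strand. The largest such overlaps were *Psd* with *Nfkb2* (1933 bases), *Tmed8* with *Gstz1* (1909 bases), *Yod1* with *Pfkfb2* (1839 bases) and *Igf1r* with *Pgpep1l* (1247 bases). Whether reads were counted by strand is not given in the sources used here, so in these members reads of the partner gene may be included, and their counts are uncertain.

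On the same strand, shared sequence was limited to a few members. Of 47 transcripts compared, 37 had no 50-base stretch in another annotated gene on the same strand, and 7 shared over 10% of their stretches. Besides those named above these included *4933427D14Rik* (54.2%, with a second gene entry of the same name), *Phf20* (14.1%, with *Phf20-ps*) and *Gpsm3* (13.8%, with *Pbx2*). Some partners overlap the member in exons at the same locus and strand. The overlap was 6147 bases in *4933427D14Rik*, 529 in *Hist2h2aa1* (with *Gm20634*), 373 in LOC102631971 (with *Gm70651*) and 227 in *Gpsm3*. On the other strand 32 members shared some stretch and 12 over 10%, among them *Hist2h2aa1* (100%), *Psd* (32.8%, with *Nfkb2*), *Tifa* (32.7%, with *Gm56817*), *Tmed8* (24.6%), *Yod1* (23.5%), *Zfhx2* (23.3%, with *Zfhx2os*) and *Map3k8* (18.5%, with *4833419F23Rik*). Exons of 31 members lie under a gene of any kind on the other strand, so if reads were not counted by strand, the counts of many members may include others.

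Promoters from RefSeq (GRCm38.p6), 250 bases before to 50 after the start, were found for 43 members. Their median GC content was 62.0%, beside 52.7% over all 27025 promoters of the table. Neither this value nor the motif shares below were compared with the other listed genes or with coding genes alone. Letters of 16 motifs were searched on both strands, and many were in only a few of the 43. CCAAT was in 16 of 43 (37.2%, beside 37.9% of all), TATAAA in 8 (18.6%, beside 14.2%), the AP-1 letters TGANTCA in 4 (9.30%, beside 7.93%) and the E-box CACGTG in 4 (9.30%, beside 7.24%). The TGACGT letters of the cAMP response element were in none of the 43 and in 7.64% of all promoters, and the GTTAAT letters of HNF1 in 1 (2.3%, beside 7.2%). TGTTCT was in 7 (16.3%, beside 19.0%), and in 3 each (6.98%) were TTGCNNAA (10.8% of all), TGATGNAA (4.06%) and ACANNNTGT (6.90%). The STAT letters TTCCNGGAA were in *Gcnt4* alone (1.15% of all) and the NF-kB letters GGGANTTCC in *4921524J17Rik* alone (1.69% of all), and neither was in *Tifa*. *Map3k8* was 1 of the 6 members without a promoter and was not searched. A match is a description of letters and not a site, and no match says nothing about the factor.

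Sequences are shown for the 2 members whose promoters hold the STAT or NF-kB letters, and for *Hsph1* and *Yod1*, which belong to protein folding and clearance and hold CCAAT boxes. Each is the 250 bases before the start, 5′ to 3′ on the strand of the gene, with the matches to any of the 16 motifs in capitals. *Gcnt4* lies at chr13:96924094-96924343 on the plus strand, with the STAT letters at bases 81 to 89, the AP-1 letters at 128 to 134, CCAAT at 34 to 38, and the letters TGTTCT at 66 to 71 and on the other strand at 26 to 31. *4921524J17Rik* lies at chr8:85432842-85433091 on the minus strand, with the NF-kB letters at bases 205 to 213. *Hsph1* lies at chr5:149636337-149636586 on the minus strand, with CCAAT at bases 135 to 139 and its reverse complement at 204 to 208. *Yod1* lies at chr1:130717077-130717326 on the plus strand, with AP-1 letters at bases 11 to 17 and, overlapping by 1 base, TGATGNAA on the other strand at 139 to 146 and CCAAT on the other strand at 146 to 150.
*Gcnt4*: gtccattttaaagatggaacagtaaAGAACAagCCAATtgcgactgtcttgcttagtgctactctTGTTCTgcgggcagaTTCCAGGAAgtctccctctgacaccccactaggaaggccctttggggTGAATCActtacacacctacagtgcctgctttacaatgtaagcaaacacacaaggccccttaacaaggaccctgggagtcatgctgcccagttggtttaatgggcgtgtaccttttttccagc
*4921524J17Rik*: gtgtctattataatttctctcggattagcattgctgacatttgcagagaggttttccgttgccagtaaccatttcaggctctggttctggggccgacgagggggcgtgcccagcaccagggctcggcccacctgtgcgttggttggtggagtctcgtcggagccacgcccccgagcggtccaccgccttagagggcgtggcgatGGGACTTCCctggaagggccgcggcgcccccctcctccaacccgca
*Hsph1*: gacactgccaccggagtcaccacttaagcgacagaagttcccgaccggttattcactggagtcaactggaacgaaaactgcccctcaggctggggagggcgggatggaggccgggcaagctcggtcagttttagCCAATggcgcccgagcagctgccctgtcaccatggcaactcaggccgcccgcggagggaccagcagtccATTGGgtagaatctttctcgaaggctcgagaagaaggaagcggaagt
*Yod1*: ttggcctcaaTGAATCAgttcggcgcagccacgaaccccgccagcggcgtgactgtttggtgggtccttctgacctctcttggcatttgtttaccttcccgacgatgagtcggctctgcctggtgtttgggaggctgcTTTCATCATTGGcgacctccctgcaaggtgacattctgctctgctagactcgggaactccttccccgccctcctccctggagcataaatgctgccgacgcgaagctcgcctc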

How the data were processed

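The authors deposited whole-number counts per gene and mouse for 257 genes. The methods of the paper name FastQC, HISAT2 on GRCm39, HTSeq and DESeq2, whereas the submitters' processing notes name Bowtie2, RSEM 1.3.1, DESeq2 1.4.5 and mm10. The paper calls genes altered at an adjusted p under 0.05 and a fold above 1.5, the cut-offs also used here. Without rescaling, the ratio of group means of the higher listed genes reaches down to 1.38, so the list follows some other rule or other values, which are not stated. Neither are the annotation, the strand setting and any scaling between libraries. The table also holds 3 columns of the authors, the mean, the fold change and an unadjusted p-value, which were not used as results. That p-value is under 0.05 for all 257 genes, so every call is made within genes selected on the same mice.

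Counts were fitted with edgeR 4.0.16 (glmQLFit, glmQLFTest) in R 4.3.3 with equal library sizes, the filter of filterByExpr and Benjamini-Hochberg adjustment over all 257 genes. The fit was tested on simulated data. Standard errors were taken from the size of the log2 fold change over the root of the F statistic. DESeq2 1.42.0, limma 3.58.1 on log2(count + 1), other scalings, a count minimum, the replicate number as a block and leaving out each mouse were alternatives.

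The members and the gene lists were chosen with earlier results of these data known. Many genes named in those results were not put in the lists, so the lists' counts over the table are incomplete. The 8 role groups were assigned by hand after the gene names were seen. Counts in full are given for members of the gene lists, the 10 largest and 5 smallest log2 fold changes, the 5 highest and 5 lowest mean counts, and the 3 largest and 3 smallest CVs in each group. The values of 1 member are not reported here. Genes were matched to GENCODE M39 on GRCm39 by symbol for 43 members, by an older RefSeq symbol for 2 and by NCBI gene ID for 2. Levels per kb use the canonical transcript.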

Additional observations from a re-analysis of the deposited data

How the results depend on the processing

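Without rescaling, 32 members and 48 of all 257 genes were higher past an adjusted p under 0.05 and a fold above 1.5. TMM, DESeq2 size factors in edgeR, equal totals and the DESeq2 Wald test with its own size factors gave 49 each (65 of all genes), with median log2 fold changes of 1.19, 1.15, 1.07 and 1.15 beside 0.67. All 4 scale over a list in which most genes are lower. An adjusted p alone gave 49 (65 of all), a fold above 2 gave 2 (15 of all), and a minimum mean of 50 counts gave 14 of the 27 members left (30 of 176 genes). limma gave 30 (46 of all) with a median of 0.66. It lost *Fam46a* and *Zfhx2* at little changed log2 fold changes, 0.58 and 0.58 in place of 0.59 and 0.60. DESeq2 without scaling gave 32 (48 of all), losing LOC102631971 and gaining *Yod1*. Leaving out each mouse gave 28 to 37 members (44 to 53 of all) and medians of 0.61 to 0.68, and 19 members (35 of all) were called with and without each mouse. No member changed direction.

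The replicate block gave 33 members (49 of all), gaining *Yod1* and losing none, with a median of 0.68. Same-numbered mice had correlations of deviations of -0.107, 0.031 and 0.055, so the numbers do not pair them.

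The median within-group CV, 14.2%, was 17.5% with equal totals, and as an SD of log2(count + 1) the spread was 0.20. All 49 members kept separate groups and a higher mean under the scalings tried, a direction that their selection fixed. Over all 257 genes 255 were separate either way without scaling, and 122 (65 of them higher) with equal totals, 98 (65) with DESeq2 size factors and 89 (65) with TMM. At low counts, gaps of at most 5 counts between groups, found in 18 members, limit what these differences can carry.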
